A study of Homo sapiens with 16 samples.

Results

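The 2 libraries of Jurkat cells that carried the USP7 hairpin shRNA-4058 were compared with the 2 that carried a scrambled control, 4 of the 16 libraries in the series. The libraries were chosen by their sample labels and no measured value was used. Jurkat is an established T-cell acute lymphoblastic leukemia (T-ALL) line, and its genotype is labelled TAL1+, as is that of HSB-2, the other T-ALL line of the series. The remaining groups of 2 libraries each were wild-type Jurkat, Jurkat with the hairpin shRNA-4057, and wild-type, scrambled, shRNA-4057 and shRNA-4058 HSB-2. The study delivered its hairpins by lentivirus and then sorted GFP-positive cells or selected with puromycin, and which of these was applied to which library is not stated. The control is called a scrambled siRNA in the sample labels and an shRNA scramble in the series design. Nothing in the labels says that the 2 libraries of a group came from separate cultures, so the p-values below measure only the spread between these libraries, which may be technical.

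USP7 is a deubiquitinase, an enzyme that removes ubiquitin from proteins and thereby spares many of them from degradation, and its best known substrates are MDM2 and p53. E proteins, chiefly E2A (encoded by TCF3) and HEB (TCF12), are basic helix-loop-helix factors that bind E-box sequences and drive the genes with which thymocytes rearrange and test their antigen receptor. TAL1, which is normally silent in maturing T cells, pairs with E proteins and alters their activity in TAL1+ leukemia. The comparison asks what a partial loss of USP7 transcript did to E-protein targets and to the rest of the Jurkat transcriptome.

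Depth was high and similar in the 4 libraries, at 96747128 to 109895353 counts in genes. Beside the 2 controls stand the wild-type libraries, and the controls differed from them: 5964 of 23063 genes (25.9%) differed between scrambled and wild-type, 3420 of them (14.8%) higher and 2544 (11.0%) lower in scrambled. The 10 most abundant genes took 14.9% and 17.0% of the counts in the scrambled libraries, 10.9% and 12.1% in wild-type, and 8.16% and 8.91% with shRNA-4058. The main results below are therefore given against wild-type as well. All 10 T-lineage markers were above 1 CPM (counts-per-million, with library sizes after TMM scaling) in each Jurkat library. Their summed level was 2971 to 3043 CPM in scrambled, 2697 to 2767 CPM in wild-type and 2219 to 2325 CPM with shRNA-4058. With the hairpin 8 of the 10 were lower than scrambled, beside 26.7% of all genes. Against wild-type 8 were lower and 1 higher, beside 21.9% and 13.9% of all genes. In bulk RNA, fewer cells of a type and less RNA per cell cannot be told apart. The 10 myeloid markers were each at or below 1 CPM. They summed to 0.698 to 0.868 CPM in scrambled, 0.878 to 1.38 CPM in wild-type and 0.931 to 0.958 CPM with shRNA-4058. The 9 erythroid and megakaryocyte markers summed to 4.15 to 4.58 CPM in scrambled, 4.18 to 4.26 CPM in wild-type and 2.26 to 2.63 CPM with the hairpin, most of it from ITGA2B. Epithelial and stromal markers summed to 5.91 to 6.001 CPM in scrambled, 8.11 to 8.14 CPM in wild-type and 9.20 to 9.36 CPM with the hairpin, most of it from COL1A1. The 8 B-lineage markers summed to 85.2 to 87.0 CPM in scrambled, 55.5 to 56.2 CPM in wild-type and 40.8 to 41.0 CPM with shRNA-4058. Of these, CD79A, BLK and EBF1 made up nearly the whole. PAX5, which defines B cells, was at or below 0.085 CPM in each Jurkat library.

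USP7 itself checked the labels. The gene lies on the minus strand of chromosome 16 (GRCh37, 8985954 to 9069185), and shRNA-4058 is aimed at its exon 8 and shRNA-4057 at its exon 21. Counted along the 31 exons of the Ensembl canonical transcript, exon 8 is 55 bases of coding sequence at chr16:9010359-9010413. It is shown because the study gives that exon number as the target. The study does not name the transcript it counted along, and the hairpin was not placed on the sequence here.
USP7 exon 8: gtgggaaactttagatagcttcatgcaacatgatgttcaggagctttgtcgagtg
The level of USP7 was 244 and 242 CPM in the 2 libraries with shRNA-4058, 384 and 387 CPM in scrambled, 396 and 386 CPM in wild-type and 140.0 and 145 CPM with shRNA-4057. The groups did not overlap, except for scrambled and wild-type, and the shRNA-4058 libraries kept 63.0% of the scrambled level and 62.1% of the wild-type level. The log2 fold change was -0.67 ± 0.03 (SE) against scrambled (adjusted p = 1.51e-13, edgeR's quasi-likelihood test, used for each adjusted p below) and -0.69 ± 0.03 against wild-type. Between the hairpins, USP7 was higher with shRNA-4058 by 0.77 ± 0.03 (adjusted p = 4.54e-14), so shRNA-4058 gave the weaker knock-down.

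**Figure D1:**
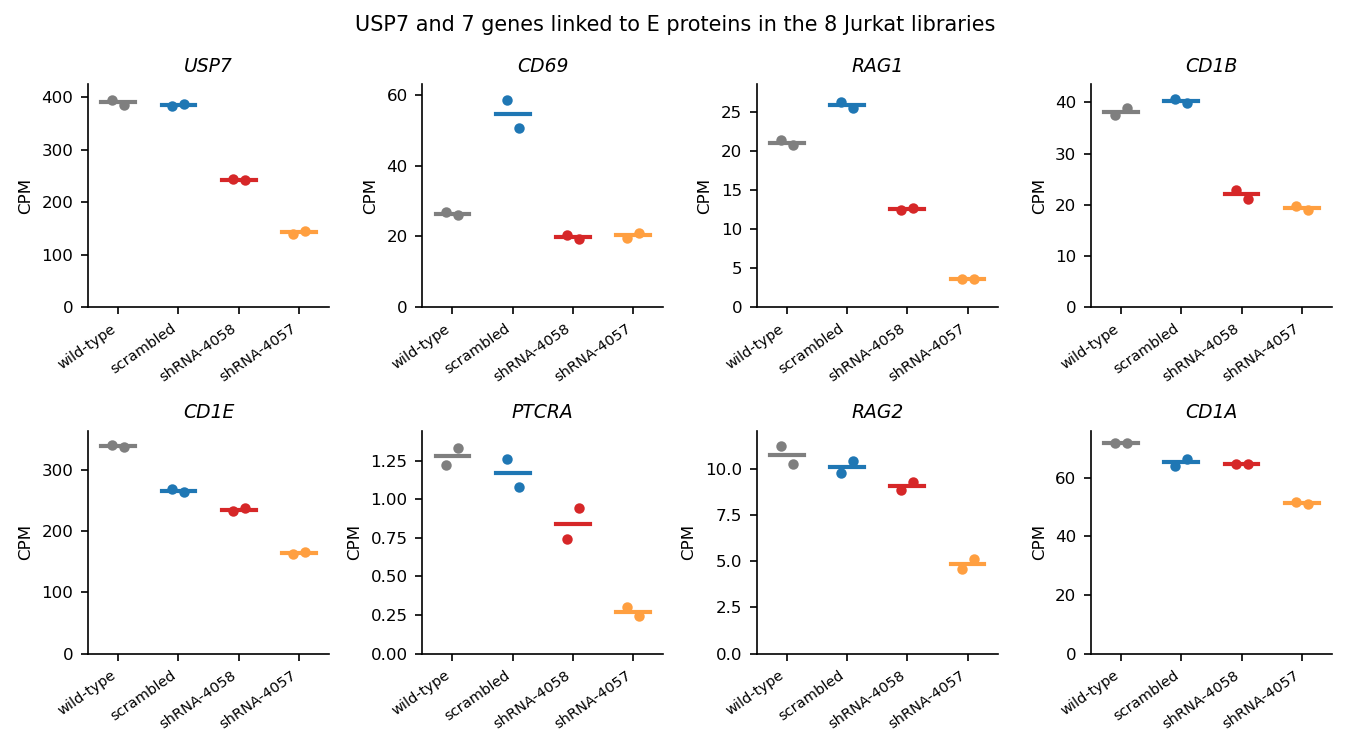
Level in counts-per-million (CPM, linear axes from 0) of USP7 and 7 genes linked to E proteins in the 8 Jurkat libraries. Points are libraries and bars are means of 2. USP7 stood at 243 CPM with shRNA-4058 against 385 CPM in scrambled and 143 CPM with shRNA-4057, and RAG1 had the same order in these 3 groups.

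Across the transcriptome, 10718 of 23063 genes tested (46.5%) were called at an adjusted p below 0.05 between shRNA-4058 and scrambled, 4551 (19.7%) higher and 6167 (26.7%) lower. A change of at least 2-fold was called for 1312 genes higher (5.69%) and 883 lower (3.83%). With upper-quartile scaling in place of TMM (trimmed mean of M values) scaling the split turned to 5862 higher and 4927 lower, since that scaling moved the median log2 fold change of the genes from -0.01 to 0.06, so small shifts in a shared direction depend on the scaling. Against wild-type, 3217 genes (13.9%) were higher and 5058 (21.9%) lower with shRNA-4058, with 503 (2.18%) and 483 (2.09%) of them changed by at least 2-fold. The counts given for gene lists below are to be read against these shares of all genes, and against 16.2% higher and 17.7% lower in the comparison with shRNA-4057. Genes without a read in 1 of the 2 groups form the outer arcs of the plot of fold change against level. There were 49 such genes called higher and 16 called lower, and their fitted fold changes have no fixed size.

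**Figure D2:**
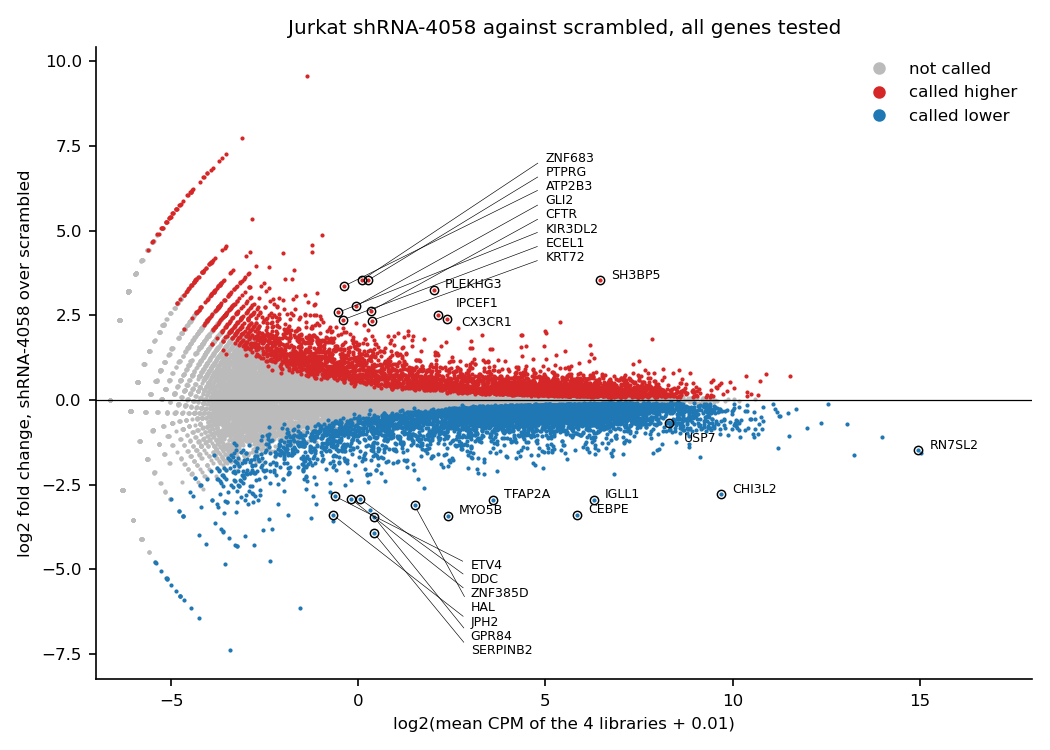
Log2 fold change of shRNA-4058 over scrambled against the log2 of the mean level (CPM + 0.01) for the 23063 genes tested. Each point is a gene, colored where its adjusted p was below 0.05. Circles mark the 12 highest and 12 lowest protein-coding genes of at least 1 CPM, USP7 and RN7SL2.

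The gene with the largest rise at a substantial level was SH3BP5, which encodes a mitochondrial adaptor that binds the kinases BTK and JNK (chromosome 3, 15295860 to 15382875). It stood at 162 and 163 CPM with shRNA-4058 and 12.8 and 15.2 CPM in scrambled, a log2 fold change of 3.54 ± 0.05 (adjusted p = 5.05e-23). The scrambled libraries were the low ones for this gene: wild-type held 80.2 and 84.9 CPM, and the change against wild-type was 0.98. Each of the other 11 genes among the 12 strongest rises had a mean below 2 CPM in scrambled and a higher mean in wild-type than in scrambled. ZNF683, the transcription factor Hobit of tissue-resident lymphocytes, went from 0.228 and 0.106 to 1.96 and 1.92 CPM (3.53 ± 0.28). CX3CR1, the fractalkine receptor, went from 1.50 and 1.81 to 8.41 and 8.87 CPM (2.38 ± 0.15), and PLEKHG3, a guanine nucleotide exchange factor, from 0.836 and 0.698 to 7.34 and 7.21 CPM (3.25 ± 0.12). The rest were PTPRG (3.53), ATP2B3 (3.36), GLI2 (2.78), CFTR (2.63), KIR3DL2 (2.58), IPCEF1 (2.50), ECEL1 (2.37) and KRT72 (2.34) on the log2 scale. KIR3DL2 belongs to a family of near-identical receptor genes, so its reads may be shared with relatives, and PTPRG, PLEKHG3, GLI2, CFTR, IPCEF1 and KRT72 overlap genes on the opposite strand.

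The 12 strongest falls included genes at far higher levels. CHI3L2, a secreted chitinase-like protein, fell from 1449.6 and 1447 CPM in scrambled to 208 and 212 CPM with shRNA-4058, a log2 fold change of -2.79 ± 0.04 (adjusted p = 2.06e-24), and it was at 835 and 853 CPM in wild-type. IGLL1, the lambda-5 chain of the surrogate light chain of B-cell precursors, fell from 136 and 141 to 17.6 and 18.2 CPM (-2.95 ± 0.06). CEBPE, a C/EBP factor of granulocyte maturation that lies on chromosome 14 (23586245 to 23589465), fell from 103 and 107 to 9.12 and 11.0 CPM (-3.39 ± 0.07). For these 3 genes the shRNA-4058 libraries were also below wild-type, with log2 fold changes of -2.01, -1.98 and -2.14. TFAP2A, an AP-2 transcription factor, fell from 21.1 and 21.9 to 2.93 and 2.62 CPM (-2.95 ± 0.08), and MYO5B, a myosin of vesicle recycling, from 8.79 and 10.4 to 1.03 and 0.746 CPM (-3.42 ± 0.20). SERPINB2, the plasminogen activator inhibitor PAI-2, had the lowest value of the rule at -3.92 ± 0.40, from 2.29 and 2.67 CPM to 0.229 and 0.0932 CPM. The others were GPR84 (-3.45), JPH2 (-3.38), HAL (-3.11), ZNF385D (-2.93), DDC (-2.92) and ETV4 (-2.84). JPH2, HAL, ZNF385D and DDC were not called against wild-type (adjusted p = 0.0632, 0.351, 0.0888 and 0.780).

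Ranking by the distance from wild-type, among genes called in the same direction against both controls, brought other genes forward. There were 7615 protein-coding genes outside chromosome Y that were called against scrambled, reached 1 CPM and had no overlap between the 2 and 2 libraries. Of these, 4943 were also called in the same direction against wild-type, 1636 higher and 3307 lower. The 2 shRNA-4058 libraries are in both comparisons, which favors agreement in direction, so the count serves to rank genes only. EGR3, an early growth response factor induced by antigen-receptor signals, stood at 5.77 and 5.93 CPM with shRNA-4058, 4.28 and 3.73 CPM in scrambled and 0.890 and 0.756 CPM in wild-type. Its change was 2.82 ± 0.11 against wild-type but 0.55 against scrambled, so most of the distance lay between the controls. EPHX3, an epoxide hydrolase, was higher by 1.65 against wild-type and 1.86 against scrambled, GPR75 by 1.61 and 1.54, and ZNF730 by 1.55 and 2.15. KIR3DL2 and ZNF683 were among the 6 highest here too, at 2.32 and 2.23. On the low side ABCA1, the exporter of cellular cholesterol, was at 1.20 and 1.13 CPM with shRNA-4058, 4.85 and 3.85 CPM in scrambled and 6.65 and 5.51 CPM in wild-type, a change of -2.39 ± 0.22 against wild-type. HDC, which makes histamine (-2.35 against wild-type and -1.52 against scrambled), TTLL9 (-2.23 and -2.17) and the glypican GPC4 (-2.04 and -2.17) followed, together with CEBPE and CHI3L2.

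Of 7 genes that the study linked to E proteins (RAG1, RAG2, PTCRA, CD69, CD1A, CD1B and CD1E), 4 were lower with shRNA-4058 than in scrambled and none was higher, beside 26.7% of genes lower overall. Against wild-type 5 of the 7 were lower (21.9% of genes), and compared with the stronger hairpin shRNA-4057 5 of the 7 were higher (16.2% of genes) and none lower. The list was drawn up with results of these samples known, so its direction is not independent evidence. Its median log2 fold change against scrambled was -0.48, that of the 23063 genes -0.01.

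CD69, an activation and retention receptor of lymphocytes (chromosome 12, 9905082 to 9913497), stood at 20.5 and 19.3 CPM with shRNA-4058, 58.5 and 50.7 CPM in scrambled, 26.9 and 26.0 CPM in wild-type and 19.5 and 20.998 CPM with shRNA-4057. Its log2 fold change was -1.46 ± 0.06 against scrambled (adjusted p = 6.85e-15) and -0.41 ± 0.06 against wild-type. CD69 was itself higher in scrambled than in wild-type, by 1.05. The hairpins did not differ detectably for CD69 (-0.03 ± 0.07, adjusted p = 0.814). RAG1, the recombinase that cuts the antigen-receptor genes (chromosome 11, 36531922 to 36614706), was at 12.4 and 12.6 CPM with shRNA-4058, 26.2 and 25.5 CPM in scrambled, 21.3 and 20.7 CPM in wild-type and 3.58 and 3.53 CPM with shRNA-4057. The 4 groups of libraries did not overlap, and shRNA-4058 lay between the controls and shRNA-4057. The log2 fold change of RAG1 was -1.05 ± 0.09 against scrambled (adjusted p = 1.80e-09) and -0.75 ± 0.09 against wild-type, and its level exceeded shRNA-4057 by 1.81 ± 0.11. RAG2, its partner, overlaps RAG1 on the opposite strand, and reads of the pair may be confused because the strand setting of the counting is not given. RAG2 stood at 8.86 and 9.28 CPM with shRNA-4058 and 9.81 and 10.4 CPM in scrambled and was not called (-0.16 ± 0.11, adjusted p = 0.262).

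PTCRA, the pre-T-cell receptor alpha chain, was near 1 CPM and was not called either: it held 0.741 and 0.941 CPM with shRNA-4058 and 1.26 and 1.08 CPM in scrambled (-0.48 ± 0.29, adjusted p = 0.193), against 0.299 and 0.243 CPM with shRNA-4057. The difference between the hairpins was 1.63 ± 0.33 (adjusted p = 4.70e-04). The remaining genes of the list belong to the CD1 family, MHC-like proteins that present lipids and mark cortical thymocytes. CD1B fell from 40.7 and 39.8 to 22.8 and 21.2 CPM (-0.87 ± 0.07). CD1C and CD1D, which were not among the 7, fell from 31.7 and 30.1 to 20.4 and 21.4 CPM (-0.56 ± 0.07) and from 34.4 and 35.5 to 26.7 and 27.4 CPM (-0.37 ± 0.07). CD1E was at 233 and 238 CPM, with 269.9 and 264 CPM in scrambled (-0.18 ± 0.06, adjusted p = 0.0130), a call that was lost without shRNA-4058 replicate 1 (adjusted p = 0.064), scrambled replicate 1 (0.063) or scrambled replicate 2 (0.076). CD1A was at 64.5 and 64.5 CPM with shRNA-4058 and 64.0 and 66.3 CPM in scrambled and was not called (-0.01 ± 0.06, adjusted p = 0.866), but it was below its wild-type level of 71.7 and 71.9 CPM (-0.15 ± 0.06). Against wild-type all 5 CD1 genes were lower, with log2 fold changes from -0.15 for CD1A to -0.79 for CD1B.

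Because E proteins act at E-boxes, the sequence around 1 annotated start of RAG1 is printed with its E-box in capitals. Which start of this long gene Jurkat cells use was not examined. The sequence runs from 250 bases before to 50 bases after the RefSeq start site (GRCh38.p14, chr11:36510103-36510402, plus strand), and it holds 1 match to CANNTG on either strand, 115 bases before the start.
RAG1 promoter: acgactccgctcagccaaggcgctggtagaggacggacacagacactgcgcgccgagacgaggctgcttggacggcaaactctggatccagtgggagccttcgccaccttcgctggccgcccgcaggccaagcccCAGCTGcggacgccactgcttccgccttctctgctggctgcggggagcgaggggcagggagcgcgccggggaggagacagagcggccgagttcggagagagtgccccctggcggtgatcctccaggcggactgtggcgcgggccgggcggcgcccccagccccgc
A match of this short motif is common: 24117 of 35116 RefSeq promoters of this length (68.7%) hold at least 1, as do 5 of the 6 promoters that matched the list of 7 genes, so the match is a description of the sequence only.

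Other genes of receptor rearrangement moved in both directions against scrambled. DNTT, the terminal transferase that adds bases at the joints, fell from 222 and 219 to 106 and 106 CPM (-1.05 ± 0.06, adjusted p = 5.88e-12), was 223 and 219.9 CPM in wild-type, and was far lower again with shRNA-4057 (41.7 and 42.7 CPM). LIG4, the ligase that closes the joints, was lower (-0.38), while PRKDC, the DNA-dependent protein kinase, was higher (0.35). In the list of 9 genes 3 were lower and 4 higher than scrambled, 3 lower and 1 higher than wild-type, and 6 higher and none lower than with shRNA-4057.

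The transcripts of E2A and TAL1 were not called against scrambled, while that of HEB (TCF12) was slightly lower (-0.09, adjusted p = 0.0191). So small a change depends on the scaling: upper-quartile scaling moved the log2 fold change of USP7 from -0.67 to -0.58. TCF3 was at 327 and 358 CPM with shRNA-4058 and 349 and 358 CPM in scrambled (-0.05 ± 0.05, adjusted p = 0.446), and TAL1 was at 283 and 282 CPM with shRNA-4058 and 287 and 293 CPM in scrambled (-0.04 ± 0.03, adjusted p = 0.352). TAL1 was nonetheless lower than in wild-type, where it held 367 and 371 CPM (-0.39 ± 0.03). LMO1, a LIM-only partner of TAL1, was at 5.60 and 5.31 CPM, with 10.7 and 10.7 CPM in scrambled (-0.97 ± 0.12) but was not called against wild-type (-0.25). LYL1, a close relative of TAL1, rose by 0.66 at a low level, from 1.30 and 1.65 to 2.34 and 2.32 CPM. Among the ID proteins, which sequester E proteins, ID3 was not called (0.02 ± 0.04, adjusted p = 0.675). ID1 was lower (-0.30, adjusted p = 0.00387) and ID2 higher (0.45, adjusted p = 0.00314). In the list of 12 tested, 3 were lower (25.0%) and 2 higher (16.7%) than scrambled, close to the shares of all genes. No member was at least 2-fold changed and called against scrambled. Against wild-type 5 of the 12 were lower and 1 higher, beside 21.9% and 13.9% of all genes. Compared with shRNA-4057, 6 were lower and 3 higher, beside 17.7% and 16.2% of all genes.

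Genes of the TAL1 circuit included changes of over 2-fold. ALDH1A2, a retinaldehyde dehydrogenase that TAL1 activates in T-ALL, stood at 265 and 268 CPM with shRNA-4058, 870.4 and 853 CPM in scrambled and 467 and 459 CPM in wild-type, a change of -1.69 ± 0.05 against scrambled and -0.80 against wild-type. TRIB2, a pseudokinase, moved the other way, from 103 and 102 CPM in scrambled and 151 and 151 CPM in wild-type to 360.1 and 358 CPM with shRNA-4058 (1.81 ± 0.03 against scrambled). MYB (-0.53), GATA3 (-0.35) and RUNX1 (-0.31) were lower by smaller amounts, as was ARID5B (-0.16), whose call was lost with upper-quartile scaling, and CDK6 (0.55) and ETS1 (0.31) were higher. Of the 10 genes 6 were lower and 3 higher than scrambled, and 7 lower and 2 higher than wild-type.

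Of 23 genes of the T-cell receptor complex and its proximal kinases, 10 were lower (43.5%) and 6 higher (26.1%) than scrambled, beside 26.7% and 19.7% of all genes, and 16 were lower and 3 higher than wild-type. ZAP70, the kinase recruited to the activated receptor, fell from 322 and 325 to 192 and 212 CPM (-0.68 ± 0.04), CD3D from 404 and 419 to 259 and 267 CPM (-0.65) and TRBC2 from 486 and 495 to 312 and 336 CPM (-0.60). CSK, the kinase that restrains LCK, rose by 0.22, and PAG1, its membrane anchor, by 0.80, though PAG1 was lower than in wild-type (-0.55). Among 20 T-lineage surface genes 11 were lower and 6 higher than scrambled, and 9 lower and 4 higher than wild-type. CD38 fell from 55.0 and 52.9 to 19.1 and 18.1 CPM (-1.54 ± 0.05) and CD99 from 628 and 664 to 257 and 269.8 CPM (-1.29 ± 0.04), and both were also below wild-type (-1.73 and -0.75). CD34, a progenitor marker, fell from 2.81 and 2.51 to 0.655 and 0.856 CPM (-1.82), and was not called against wild-type, which held 0.821 and 0.822 CPM. CD40LG rose from 15.3 and 15.5 to 36.3 and 34.9 CPM (1.21).

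Genes of lymphocyte circulation included several rises of over 2-fold. S1PR1, the sphingosine-1-phosphate receptor with which T cells leave lymphoid organs, stood at 68.1 and 71.1 CPM with shRNA-4058, 14.5 and 13.9 CPM in scrambled and 41.1 and 38.0 CPM in wild-type, a change of 2.29 ± 0.05 against scrambled (adjusted p = 1.07e-19) and 0.81 against wild-type. KLF2, the factor that drives S1PR1, went from 12.6 and 12.7 to 51.1 and 51.7 CPM (2.02 ± 0.07), with 33.2 and 38.0 CPM in wild-type. FOXO1, which acts above KLF2, rose from 7.04 and 6.56 to 15.4 and 14.9 CPM (1.16). Of the 22 genes of the list 10 were higher and 8 lower than scrambled and 7 higher and 6 lower than wild-type, where their median was 0.02, with ICAM2 (-0.59) and ICAM3 (-0.55) on the low side and CD44 (2.15, but at only 0.347 and 0.373 CPM) on the high side. Among 29 T-lineage transcription factors 9 were higher and 12 lower than scrambled, and 7 higher and 16 lower than wild-type, with TOX (-0.73), ERG (-0.95) and HHEX (-1.20) lowest.

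Cytotoxic genes were split, and their direction depended on the control. EOMES, a T-box factor of effector and memory cells, was at 16.4 and 14.9 CPM with shRNA-4058, 3.82 and 4.55 CPM in scrambled, 23.3 and 22.3 CPM in wild-type and 101 and 102 CPM with shRNA-4057, so it was higher than scrambled (1.90 ± 0.08) but lower than wild-type (-0.54 ± 0.07) and than the other hairpin (-2.70 ± 0.07). The granzyme gene GZMK had the same order, with 2.96 and 3.06 CPM, 0.911 and 0.709 CPM, 12.1 and 11.2 CPM and 24.2 and 25.1 CPM in those groups. GZMA went from 55.6 and 57.1 CPM in scrambled to 36.0 and 38.2 CPM (-0.60), beside 35.2 and 34.2 CPM in wild-type. NKG7, a granule protein, rose from 5.51 and 5.69 to 11.8 and 11.4 CPM (1.05) and PRF1, perforin, from 5.92 and 5.997 to 9.59 and 9.70 CPM (0.69). Of 14 cytotoxic genes 5 were higher and 5 lower than scrambled, and 12 were lower (17.7% of genes) and none higher than with shRNA-4057.

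The cytosolic ribosomal protein genes had the largest share of lower genes among the lists examined. With shRNA-4058, 77 of the 79 were lower than in scrambled and 1, RPL36A, was higher, with a median log2 fold change of -0.71. RPS3A fell from 1668 and 1551 to 759.6 and 741 CPM (-1.10 ± 0.04), RPS18 from 1258 and 1279.7 to 618 and 623 CPM (-1.03 ± 0.03) and RPS3 from 1937 and 2042 to 973 and 1007 CPM (-1.01 ± 0.03). Against wild-type 77 were again lower, with a median of -0.35, and 71 of the 79 were higher in scrambled than in wild-type. Between the hairpins the counts were balanced: 11 were higher and 13 lower with shRNA-4058 than with shRNA-4057, and the median difference was -0.01. Many of these genes have processed pseudogenes with which short reads can be shared. Structured noncoding RNAs moved in the same direction: 6 of 8 were lower than scrambled and 6 lower than wild-type. RN7SL2, an RNA of the signal recognition particle with near-identical copies, took 42136 and 52357 CPM in scrambled, 25038 and 30304 CPM in wild-type and 15427 and 18185 CPM with the hairpin (-1.49 ± 0.09 against scrambled). TERC, the telomerase RNA (-1.48), RN7SK (-1.10), SNORD3A (-1.05), SCARNA5 (-1.16) and SCARNA13 (-0.58) fell with it. RN7SL2 stood at 19587 and 18417 CPM with shRNA-4057, and the part of the structured RNAs in the ribosomal protein result was not tested.

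**Figure D3:**
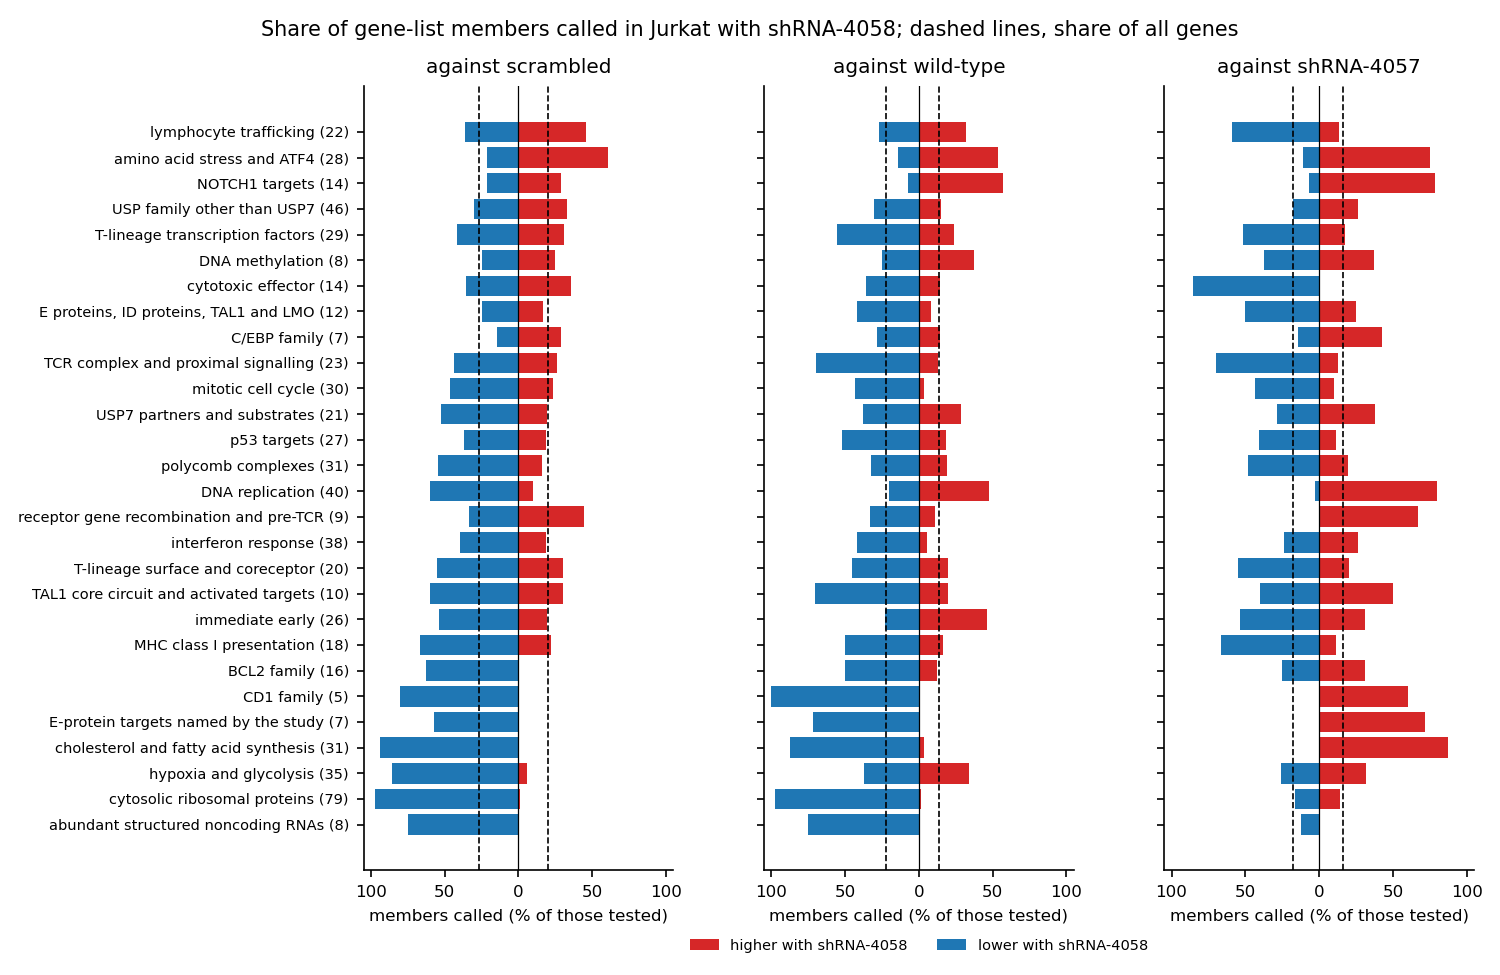
Share of tested members of 28 gene lists (number in parentheses) called higher (right, red) or lower (left, blue) with shRNA-4058 than in scrambled, wild-type and shRNA-4057 Jurkat libraries. Dashed lines give the share of all 23063 genes, and the lists are ordered by their median log2 fold change against scrambled. Cholesterol genes were lower than both controls and higher than with shRNA-4057.

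Genes of cholesterol and fatty acid synthesis were lower nearly as a whole. Of 31 genes 29 were lower than scrambled and none was higher, with a median of -0.52, and 27 were lower than wild-type. FDFT1, squalene synthase, fell from 814 and 827 to 427 and 437 CPM (-0.93 ± 0.03), and INSIG1, the sterol-sensing brake of the pathway, from 678 and 663 to 371 and 356 CPM (-0.88 ± 0.03). ACSS2, which makes acetyl-CoA from acetate, was the lowest at -1.02 ± 0.05. Compared with the stronger hairpin, 27 of the 31 genes were higher and none lower with shRNA-4058 than with shRNA-4057, with a median difference of 0.48. In INSIG1 the levels ran from 558 and 550.1 CPM in wild-type over 371 and 356 CPM with shRNA-4058 to 206 and 206 CPM with shRNA-4057, and the groups did not overlap.

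Hypoxia and glycolysis genes gave a different picture. Against scrambled 30 of 35 were lower and 2 higher (median -0.55), among them PFKFB4, a regulator of glycolytic flux, which fell from 162 and 163 to 56.8 and 61.1 CPM (-1.47 ± 0.04). Against wild-type, however, 12 were higher and 13 lower (median -0.06), and 30 of the 35 were higher in scrambled than in wild-type. ADM, the hypoxia-induced peptide adrenomedullin, was at 3.92 and 4.26 CPM in wild-type, 8.75 and 10.5 CPM with the hairpin and 29.5 and 31.0 CPM in scrambled (-1.65 ± 0.09 against scrambled and 1.24 ± 0.10 against wild-type). CA9, a carbonic anhydrase, was lower than scrambled (-1.70) and not called against wild-type (0.44, adjusted p = 0.285).

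Targets of ATF4, the factor of the amino acid and integrated stress response, were higher more often than lower. Of 28 genes 17 were higher and 6 lower than scrambled (median 0.20), 15 higher and 4 lower than wild-type (0.23), and 21 higher and 3 lower than with shRNA-4057 (0.40). SLC7A11, the cystine importer, rose from 1.53 and 1.13 to 3.96 and 4.13 CPM (1.60 ± 0.17) and CHAC1, which degrades glutathione, from 2.06 and 2.44 to 5.91 and 6.15 CPM (1.42 ± 0.09). SLC7A5, the large neutral amino acid transporter, went from 246 and 251 to 421 and 435 CPM (0.78 ± 0.04) and stood above its 281 and 300.4 CPM in wild-type. VLDLR (-0.77) and ALDH18A1 (-0.39) were among the 6 lower genes, and both were lower than wild-type too (-0.43 and -0.16). The start of CHAC1 is shown for its match to TGATGNAA, the composite element that ATF4 binds with C/EBP factors, which lies 209 bases before the RefSeq start site (GRCh38.p14, chr15:40953221-40953520, plus strand) on the opposite strand and is in capitals.
CHAC1 promoter: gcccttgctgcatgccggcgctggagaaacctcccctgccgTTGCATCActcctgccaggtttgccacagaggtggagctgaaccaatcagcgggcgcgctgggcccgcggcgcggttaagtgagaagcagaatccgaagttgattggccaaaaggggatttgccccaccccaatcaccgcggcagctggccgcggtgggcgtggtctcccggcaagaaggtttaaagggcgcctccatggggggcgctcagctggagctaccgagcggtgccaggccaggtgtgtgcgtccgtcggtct
The element occurs on either strand in 1270 of 35116 RefSeq promoters (3.62%) and in 8 of the 38 promoters of genes on the ATF4 list (21.1%), a list drawn up from known targets.

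**Figure D4:**
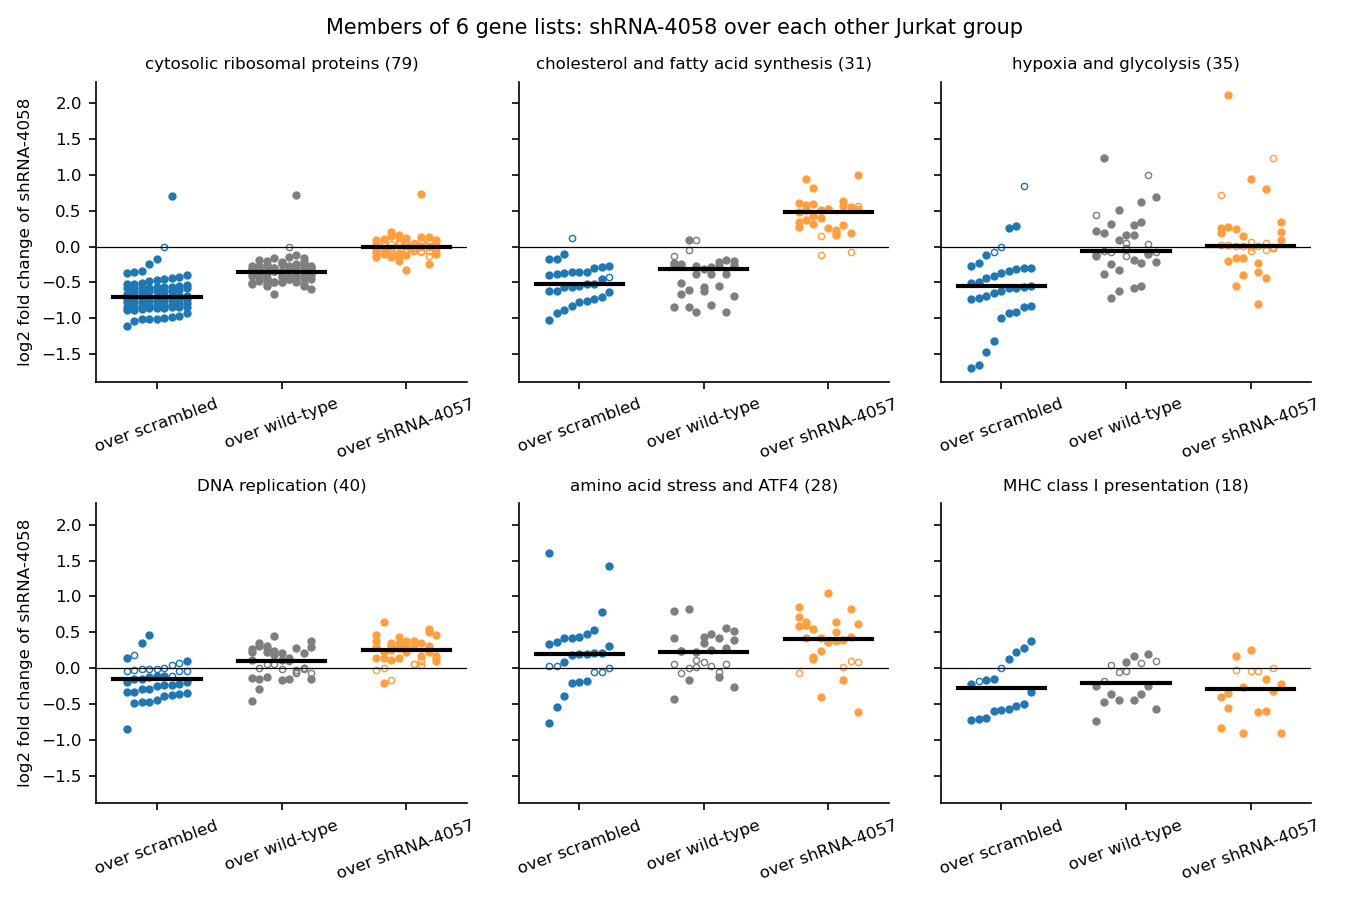
Log2 fold change of shRNA-4058 over scrambled (blue), wild-type (grey) and shRNA-4057 (orange) for each tested member of 6 gene lists. Points are genes, filled where called, and black bars are medians. Ribosomal protein genes had a median of -0.71 over scrambled and -0.35 over wild-type, while DNA replication genes changed sign with the control.

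For replication genes too the direction depended on the control. Against scrambled 24 of 40 were lower and 4 higher (median -0.15), but against wild-type 19 were higher and 8 lower (0.10), and 32 were higher and 1 lower than with shRNA-4057 (0.25). CDT1, which licenses origins, fell from 299 and 304 to 161 and 175 CPM (-0.85 ± 0.05) and was below its wild-type level too (-0.45). TYMS, thymidylate synthase, was lower than scrambled (-0.48) and than wild-type (-0.13). POLA1, the catalytic subunit of DNA polymerase alpha, rose against both, by 0.46 and 0.45. Of 30 mitotic genes 14 were lower and 7 higher than scrambled, or 8 and 10 with upper-quartile scaling. Against wild-type 13 were lower and 1 higher, beside 21.9% and 13.9% of all genes. AURKB (-0.41) and PTTG1 (-0.40) were lower, and CENPE (0.83) and ASPM (0.67) were higher than scrambled but not called against wild-type.

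Among genes tied to USP7, 11 of 21 partners and substrates were lower and 4 higher than scrambled, counts that became 6 and 8 with upper-quartile scaling. Against wild-type 8 were lower and 6 higher. RB1, the retinoblastoma protein, rose from 275 and 261 to 518 and 469.5 CPM (0.88 ± 0.06), with 386 and 367 CPM in wild-type. USP11, another deubiquitinase, fell from 267 and 276 to 165 and 176 CPM (-0.67 ± 0.04). Over the 46 other ubiquitin-specific proteases, 15 were higher and 14 lower than scrambled, or 23 and 11 with upper-quartile scaling. Against wild-type 7 were higher and 14 lower. USP20 (-0.58) and USP44 (-0.49) were next lowest, and USP16 (0.57) and USP31 (0.47) were higher against both controls. None of the 46 was changed at least 2-fold and called.

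Targets of p53, which Jurkat cells lack in functional form, showed 10 lower and 5 higher of 27 against scrambled, beside 26.7% and 19.7% of all genes, and 14 lower and 5 higher against wild-type. TP53INP1 fell from 23.3 and 23.6 to 7.93 and 7.06 CPM (-1.64 ± 0.07) and DDB2 from 52.2 and 53.4 to 30.0 and 30.1 CPM (-0.81 ± 0.04), and both were below wild-type by similar amounts (-1.66 and -0.72). In the BCL2 family, regulators of apoptosis, 10 of 16 were lower than scrambled (62.5%, beside 26.7% of all genes) and none was higher. Against wild-type 8 were lower and 2 higher, and 9 of the 16 were higher in scrambled than in wild-type. The genes lower than scrambled included genes of opposite function: BCL2 (-0.62) and BCL2L1 (-0.55), which protect cells, and BAX (-0.46) and BMF (-0.56), which promote death. Of 14 NOTCH1 targets 4 were higher (28.6%) and 3 lower (21.4%) than scrambled, near the shares of all genes (19.7% and 26.7%), and 8 were higher and 1 lower than wild-type (13.9% and 21.9% of all genes). HES1, a direct target, went from 3.71 and 3.15 CPM in scrambled and 3.16 and 3.38 CPM in wild-type to 7.19 and 7.97 CPM (1.14 ± 0.08), and MYC from 130.0 and 135 CPM in scrambled and 143 and 152 CPM in wild-type to 211 and 228 CPM (0.73 ± 0.04). NOTCH3 was lower (-0.73).

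Of 18 genes of MHC class I presentation 12 were lower (66.7%) and 4 higher (22.2%) than scrambled, 9 lower and 3 higher than wild-type, and 12 lower and 2 higher than with shRNA-4057. HLA-E, a class I chain read by natural killer cells, fell from 127 and 133 to 76.0 and 82.2 CPM (-0.72 ± 0.04), and with shRNA-4057 it stood at 143 and 139 CPM. The class I genes resemble each other, so some of their reads cannot be placed with certainty. Of 38 interferon-response genes 15 were lower (39.5%, beside 26.7% of all genes) and 7 higher (18.4%, beside 19.7%), and 16 were lower and 2 higher than wild-type, with OAS1 (-1.65 ± 0.15) and EPSTI1 (-1.27 ± 0.07) lowest and MX2 (0.84) highest. Immediate early genes were lower than scrambled in 14 of 26 and higher in 5. In scrambled 21 of the 26 were higher than in wild-type, and with shRNA-4058 12 were higher and 6 lower than in wild-type. FOS was at 5.02 and 5.41 CPM with shRNA-4058, 3.55 and 3.05 CPM in scrambled and 2.39 and 2.36 CPM in wild-type, and SPRY2, a feedback inhibitor of growth factor signals, was at 7.44 and 6.97 CPM, 17.5 and 17.3 CPM and 9.15 and 9.38 CPM in these groups.

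Of 31 polycomb genes 17 were lower and 5 higher than scrambled and 10 lower and 6 higher than wild-type, but against scrambled 6 and 9 with upper-quartile scaling. PHF1, an accessory subunit of the repressive complex PRC2, was called with a change of over 2-fold, falling from 49.9 and 51.6 to 20.4 and 20.7 CPM (-1.30 ± 0.06), and it was lower than wild-type and than shRNA-4057 as well (-1.08 and -0.81). CBX6 (0.46) and CBX2 (0.45) were higher. Of 8 genes of DNA methylation 2 were higher (25.0%) and 2 lower (25.0%), near the shares of all genes, and the higher ones were the glycosylase TDG (0.61) and the dioxygenase TET3 (0.38). In the C/EBP family of 7, CEBPE was the lower gene, and CEBPZ (0.34) and CEBPG (0.19) were higher.

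The direct comparison of the hairpins asked where the weaker knock-down lay. Between shRNA-4058 and shRNA-4057, 7817 genes (33.9%) were called, 304 higher (1.32%) and 514 lower (2.23%) by at least 2-fold. Both hairpins share the scrambled libraries, so values over scrambled are given side by side only. Among the 7615 candidates, 2764 differed between the hairpins in the direction in which shRNA-4058 differed from scrambled, 1071 higher and 1693 lower. Both comparisons hold the same 2 shRNA-4058 libraries, which favors agreement in direction, so this count serves to rank genes only. CDHR1, a protocadherin, was the extreme on the low side: it held 11.8 and 12.5 CPM with shRNA-4058, 48.1 and 50.1 CPM in scrambled, 37.6 and 38.3 CPM in wild-type and 48.2 and 48.6 CPM with shRNA-4057, a difference of -1.99 ± 0.06 between the hairpins. SRGN, the proteoglycan of secretory granules, was at 4.98 and 4.56 CPM with shRNA-4058 and 18.2 and 18.8 CPM with shRNA-4057 (-1.96), while scrambled held 6.25 and 6.21 CPM. SLC26A11 (-1.87), NEIL1 (-1.86) and GZMA (-1.83) completed the 5 lowest, and for these, as for SRGN, shRNA-4057 was above scrambled (1.16 ± 0.15, 1.39 ± 0.13 and 1.22 ± 0.04 for the 3).

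On the high side, BCAT1, which transaminates branched-chain amino acids, was at 157 and 146 CPM with shRNA-4058, 104 and 95.7 CPM in scrambled and 63.6 and 68.0 CPM with shRNA-4057 (1.20 ± 0.05 between the hairpins). ANTXR1, an anthrax toxin receptor, was at 28.5 and 29.9 CPM, 22.6 and 24.2 CPM and 12.4 and 12.3 CPM in the same groups, and TNFRSF4, the co-stimulatory receptor OX40, at 4.09 and 3.99 CPM, 1.71 and 1.84 CPM and 1.79 and 1.96 CPM. SLC6A9, a glycine transporter, was higher than with shRNA-4057 by 1.43, and HSPA1B, a heat shock protein with a near-identical neighbor, by 1.27. For BCAT1, ANTXR1 and HSPA1B the libraries with shRNA-4058 were above scrambled and those with shRNA-4057 below it (-0.60 ± 0.05, -0.92 ± 0.05 and -0.96 ± 0.06).

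In HSB-2, the same hairpin left USP7 at 162 and 156 CPM, against 227 and 220.1 CPM in the scrambled HSB-2 libraries, 71.0% of the control level (-0.49 ± 0.03). Of the wild-type level, USP7 kept 66.2% in HSB-2 and 62.1% in Jurkat, closer to each other than the shares of the scrambled level. Over scrambled, the effect on USP7 in Jurkat minus that in HSB-2 was -0.17 ± 0.05 (adjusted p = 0.00393). Over the transcriptome 12177 genes (52.8%) were called in HSB-2, 6131 higher (26.6%) and 6046 lower (26.2%), and the effect of shRNA-4058 differed between the lines for 12826 genes (55.6%). Of the 4551 genes higher in Jurkat 827 were also higher in HSB-2, which is 18.2% of the Jurkat list and 13.5% of the HSB-2 list, and 2202 (48.4%) were lower in HSB-2. Of the 6167 genes lower in Jurkat 1186 were also lower in HSB-2, 19.2% of the Jurkat list and 19.6% of the HSB-2 list, and 2997 (48.6%) were higher. The comparisons in the 2 lines share no library, and each rests on the scrambled libraries of its line as the only control.

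Some genes changed alike. KLF2 rose from 2.59 and 2.87 to 11.5 and 11.3 CPM in HSB-2 (2.06 ± 0.09), next to 2.02 in Jurkat. SH3BP5 (2.15), ECEL1 (2.54) and the keratin KRT1 (2.91, and 1.98 in Jurkat) also rose. GPR84, a receptor for medium-chain fatty acids, was lower in HSB-2 (-3.44 ± 0.09) as in Jurkat (-3.45 ± 0.18). MYO5B (-2.78), the histidine ammonia-lyase gene HAL (-2.27) and C16orf74 (-2.22, and -2.02 in Jurkat) were lower in HSB-2 as well. TRIB2 rose in HSB-2 as well (1.87), and ALDH1A2 fell (-1.89). CD69 moved in the opposite direction to Jurkat and was at 141 and 131 CPM in the HSB-2 libraries that carried shRNA-4058, where scrambled held 26.7 and 25.2 CPM (2.39 ± 0.06). RAG1 was at 0.134 and 0.0398 CPM in the scrambled HSB-2 libraries and was not called there (adjusted p = 0.810). The ribosomal protein genes were higher in 44 and lower in 10 of 79 in HSB-2, and the cholesterol genes higher in 18 and lower in 5 of 31.

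**Figure D5:**
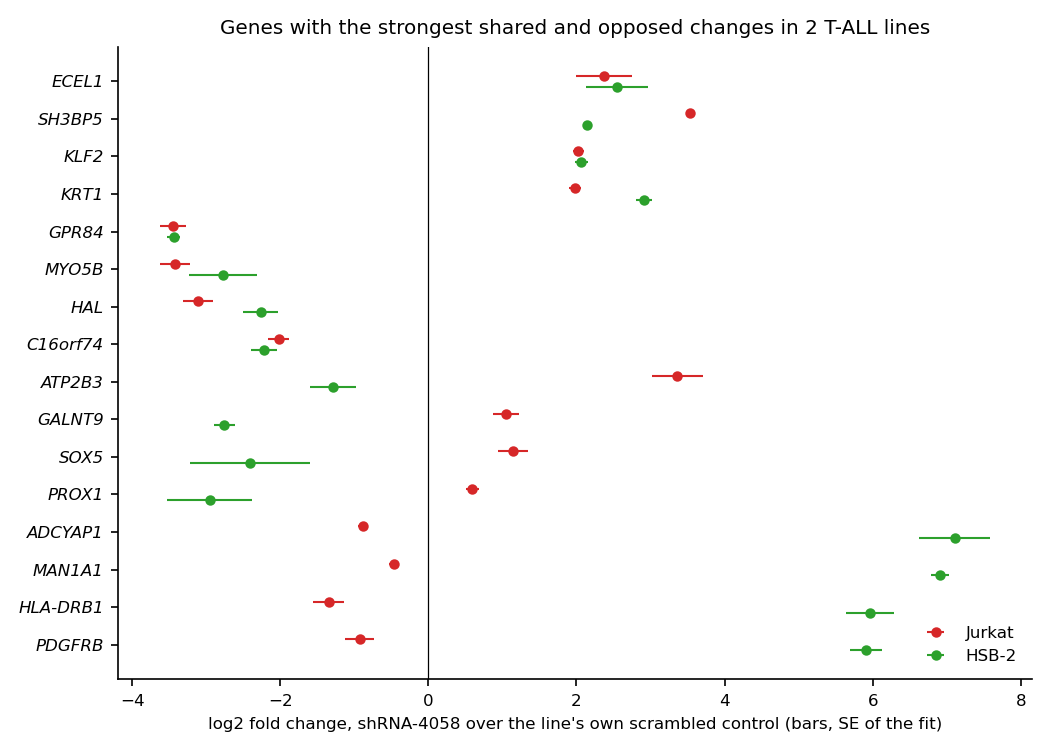
Log2 fold change of shRNA-4058 over the scrambled libraries of the same line for 16 genes in Jurkat (red) and HSB-2 (green). Points are fitted values and bars are SE. The upper 8 genes moved in the same direction in both lines and the lower 8 in opposite directions, from ADCYAP1 at -0.88 in Jurkat and 7.11 in HSB-2 to SOX5 at 1.14 and -2.41.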

How the data were processed

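Ribosome-depleted total RNA of Jurkat and HSB-2 cells was sequenced on an Illumina NovaSeq from stranded libraries. The authors deposited 1 table of raw counts per gene for the 16 libraries, and the submitters' processing notes name CASAVA, BWA, STAR, HTSeq 0.6.1p1 and hg19. The strand setting of the counting and the annotation release are not given in the sources used here. Each column was assigned to its library by sample title. The table holds Ensembl identifiers only, so symbols and positions were taken from a GRCh37 annotation.

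The counts were analysed with edgeR 4.0.16 in R 4.3.3. Genes passing filterByExpr were kept (23063 of 57820), scaling was by TMM, and quasi-likelihood models were fitted to the 16 libraries as 8 groups, which share 1 estimate of the spread. P-values were adjusted by the Benjamini-Hochberg method over all genes tested, and a gene was called at an adjusted p below 0.05. Levels are CPM of the library sizes after TMM scaling, fold changes are fitted log2 values, and each SE was derived from the test statistic. CPM was not divided by gene length, so levels are compared between groups and not between genes. The procedure was also run on counts simulated from its own fitted spread. Such counts cannot test the choice of control or whether the replicates are technical. Alternatives were upper-quartile and RLE scaling, DESeq2 1.42.0, other filters, an offset for GC content and length, fewer libraries, wild-type as control, a replicate block, and each replicate left out.

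Named genes were USP7, the 7 genes the study linked to E proteins, and protein-coding genes outside chromosome Y called against scrambled with a mean of at least 1 CPM in the higher group and no overlap between libraries. Of these, the 12 highest and 12 lowest fold changes were named, then the 6 and 6 farthest from wild-type, the 5 and 5 with the largest difference between the hairpins in the direction of the change from scrambled, the 4 and 4 shared with HSB-2 and the 4 and 4 opposite in HSB-2, and up to 3 called genes at each end of a gene list. Lists of at most 16 genes could be given whole. The members and the 33 lists were chosen with earlier results of these data known. Sequences are from RefSeq (GRCh38.p14) and the GRCh37 genome, and the hairpin sequences were not used here. Some genes that these rules would name are not reported here.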

Additional observations from a re-analysis of the deposited data

Results flagged for a closer look

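The effect of shRNA-4058 differed between Jurkat and HSB-2 for 12826 genes (55.6%) by edgeR's test of the interaction. Both effects were taken over scrambled, and the interaction was not tested with wild-type as the control. Of the 7615 protein-coding candidates changed in Jurkat, 4009 were called in opposite directions in the 2 lines with a called interaction. Another 1656 were called in the same direction, where 52.8% of all genes were called in HSB-2. The values that follow are the log2 effect in Jurkat minus that in HSB-2, and each was called by the interaction test. On the side of Jurkat stood ATP2B3, a plasma membrane calcium pump (4.65), GALNT9, a glycosyltransferase (3.81), SOX5, an HMG-box transcription factor (3.55), and PROX1, a homeobox factor (3.55). On the side of HSB-2 stood ADCYAP1, which encodes the peptide PACAP (-7.99), MAN1A1, a Golgi mannosidase (-7.38), HLA-DRB1, a class II antigen-presenting chain (-7.31), and PDGFRB, a growth factor receptor (-6.83). CD69 differed by -3.85. SOX5 was not called by DESeq2 in Jurkat, and its sign there turned against wild-type. The cause of these differences was not tested. Groups of 2 libraries are too small for a check of single outlying samples.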

How the results depend on the processing

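The count of 10718 genes called between shRNA-4058 and scrambled became 8771 to 9496 when 1 library was left out, with 3545 to 4007 higher and 4764 to 5618 lower, and 1042 to 1148 genes higher and 645 to 894 lower by at least 2-fold. It was 10758 with RLE size factors, 10417 with DESeq2, 10340 with the 4 libraries alone and 11002 with an offset for GC content and length. The number higher by at least 2-fold, 1312, was 736 with at least 10 counts in every library and 503 against wild-type, and the number lower, 883, was 483 against wild-type. With 1 library left out, the hairpins differed for 5899 to 6847 genes, the lines for 11690 to 12205, shRNA-4058 and wild-type for 6334 to 7097, and scrambled and wild-type for 4036 to 4901. Where a group was left with 1 library, that library was assumed to vary like the others.

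The control mattered most for single genes. Among the called genes named in the text, 149 were checked, and TCF12 was not one of them. Against wild-type 128 kept their direction and call, 14 kept only the direction and 7 turned: ADM (1.24), CA9 (0.44), EOMES (-0.54), GZMA (0.10), GZMK (-1.95), PAG1 (-0.55) and SOX5 (-0.49). GZMK was at -0.030 against scrambled and wild-type together. Of the 149, CD1E and ARID5B lost their calls with upper-quartile scaling (-0.10 and -0.08), and CD1E also with the GC and length offset and with at least 10 counts in every library. The counts of list members called higher or lower moved as well. With wild-type as control 25 of these counts moved beyond a fixed ratio and 41 did not. With upper-quartile scaling 13 did and 53 did not. The cause was not tested.

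A replicate block gave 10652 calls (4517 higher and 6135 lower). Libraries of shRNA-4058 and scrambled with the same number deviated together (r = 0.298) and those of the hairpins oppositely (r = -0.356), and no label says what a shared number stands for, so the libraries were not treated as pairs. With the numbers of shRNA-4057 crossed, a choice made after seeing the data, 8123 genes differed between the hairpins in place of 7817. With 2 libraries a group, small changes and genes with few counts are poorly resolved.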

Other observations

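EHF, an epithelial ETS factor, was chosen after its values were seen as an example of a gene without a read in either scrambled library. It held 0.860 and 0.653 CPM with shRNA-4058, 1.51 and 1.26 CPM with shRNA-4057 and 0.103 and 0.0222 CPM in wild-type. Against a floor of 3 counts per library (0.0321 CPM) it was at least 23.5-fold higher with shRNA-4058 than in scrambled, counting error only.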
